A study of Saccharomyces cerevisiae with 90 samples.

Results

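The 33 genes described here are iron uptake and iron handling genes of the budding yeast Saccharomyces cerevisiae, among 5449 yeast genes measured on the arrays. They were chosen by name, as genes of the iron regulon, the FRE reductase family and iron handling, and each was read from its brightest probe set over all arrays. All 33 were found, each with 1 probe set and with no probe set name marking shared probes. The labels name no iron treatment, so the list says only which genes were followed, not that iron was varied.

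The study asked how yeast cells respond to touch, comparing growth on solid substrates with growth in liquid culture. RNA was measured on 90 Affymetrix arrays in 29 groups of 3 arrays, except for wild-type cells at 0 h on SD agar, which had 6. Wild-type cells were sampled after 6 h on SD agar, SD gelatin, SLAD agar and SG agar, and in SD, SLAD and SG liquid, and also at 0 h on SD agar and in SD liquid. The other strains were sampled after 6 h on agar and in liquid. In SD these were Kss1K42R (an altered form of the filamentation MAP kinase), the tec1 knockout (without the Tec1 transcription factor of that pathway), the msb2 knockout (without the surface mucin Msb2), the flo11 knockout (without the adhesin Flo11), cells with the plasmid pRS313-STE11-4 (a hyperactive allele of the kinase Ste11) beside cells with the vector pRS313, and cells with pRS316-MSB2* (an altered Msb2) beside cells with the vector pRS316. The strain PGAL1-FLO11, in which the GAL1 promoter is placed before FLO11, was sampled in SD and in SG. The labels do not spell out the media; by yeast convention SD is a synthetic glucose medium, SLAD its low-ammonium form and SG its galactose form, and GAL1, the galactokinase gene, averaged 15.27 to 15.38 in the SG groups against at most 8.68 in any other group. Strain background, ploidy and mating type were not given in the sources used here.

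TEC1, MSB2 and FLO11 were low in their own knockouts, with means of 5.67 and 5.30, 4.99 and 4.78, and 6.77 and 6.60 on agar and in liquid, against 9.92 and 10.04, 12.65 and 12.70, and 14.81 and 10.41 in wild-type cells. HIS3, carried by pRS313, averaged 13.55 to 14.63 in the cells with pRS313 plasmids and at most 6.16 in other groups, and URA3, carried by pRS316, averaged 11.94 to 13.44 in the cells with pRS316 plasmids and at most 4.77 in other groups. In PGAL1-FLO11 cells in SD, FLO11 averaged 14.50 on agar against 10.64 in liquid while GAL1 stayed low, so FLO11 did not follow GAL1 there and the label gives no more than the name. The gelatin arrays lay far from their group mean, and replicate A most. Their root mean square distances over all genes were 0.60, 0.33 and 0.30 (log2) for replicates A, B and C. Other arrays with large distances were wild-type SG liquid C at 0.31, STE11-4 liquid C at 0.29, and msb2 agar A and C, both at 0.28. The median over genes of the within-group SD, a different measure, was 0.16. The labels do not say that replicates were separate cultures, so the p-values below measure the spread between these samples, which may be technical. Each gene's spread was estimated over all 29 groups together, not from the arrays compared. The wider spread of the gelatin arrays is therefore not carried in full by the SE and p-values of their comparisons. RNA came from whole cultures, so fewer cells expressing a gene and less RNA per cell cannot be told apart.

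Yeast takes up iron along several routes. Surface reductases of the FRE family turn ferric into ferrous iron, which enters through the Fet3 oxidase and Ftr1 permease or through the low-affinity transporter Fet4, while iron bound to siderophores, the iron carriers of other microbes, is caught by FIT mannoproteins of the cell wall and taken in by the transporters Arn1, Arn2, Sit1 and Enb1. The transcription factors Aft1 and Aft2 switch these genes on when iron is scarce, and the mRNA decay protein Tis11, also called Cth2, then removes messages of iron-using proteins, whereas Yap5 acts when iron is plentiful and turns on the vacuolar importer Ccc1.

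Signals are on the log2 scale of the deposited values, and a difference of 1 is a 2-fold difference. Of the 33 genes, 31 lay above the background limit on all 90 arrays, taken on each array as the 95th percentile of the signal of probe sets whose gene is absent from the S. cerevisiae table. FET4 lay above it on 85 arrays, and FRE5, a putative reductase, on 1, so FRE5 was hardly measured. Within groups the SD of these genes had a median of 0.22 and ran up to 0.58 for FIT2. A change was called where it reached 2-fold with an adjusted p below 0.05, and it passed at any size on that p alone.

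Wild-type cells on SD agar carried less RNA of most siderophore uptake genes than cells in SD liquid. Of the 33 genes, 4 fell at least 2-fold (FIT2, ARN1, ARN2 and FRE2), against 2.81% of all genes, and 2 rose (FRE4 and YAP5), against 1.73%. At any size, 18 fell, against 21.1% of all genes, and 3 rose, against 30.8%, and the median change of the 33 was -0.55 while that of all genes was 0.09. The remaining 12 genes did not pass.

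FIT2, a cell wall mannoprotein that holds siderophores, had signals of 8.95, 8.81 and 9.16 on SD agar, against 11.04, 11.94 and 12.01 in SD liquid. ARN2, a transporter of siderophores of the triacetylfusarinine type, had 9.91, 10.06 and 10.24 on agar, against 12.05, 12.68 and 12.40 in liquid. ARN1, its relative for ferrichromes, had 11.01, 10.90 and 11.16 on agar, against 12.69, 13.04 and 12.85 in liquid. In all of them every agar array lay below every liquid array. The changes were -2.69 ± 0.47 for FIT2, -2.31 ± 0.33 for ARN2 and -1.84 ± 0.27 for ARN1 (SE), with adjusted p of 3.67e-06, 7.07e-08 and 9.16e-08. The other mannoprotein genes, FIT1 and FIT3, fell by 0.71 and 0.99, and ENB1, the enterobactin transporter gene, by 0.62. SIT1, the ferrioxamine transporter gene, differed by -0.55 and did not pass.

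**Figure D1:**
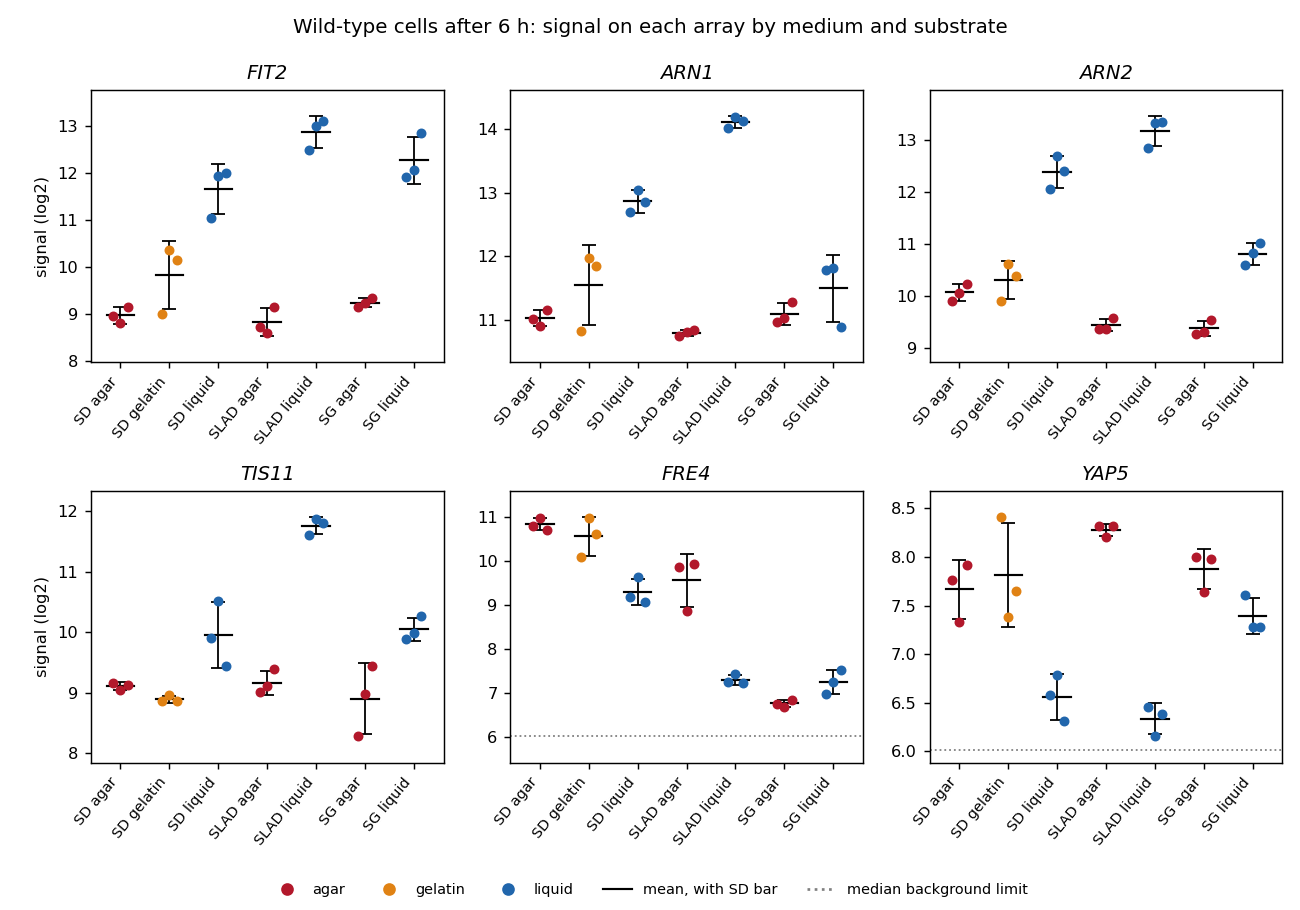
Signal (log2) of 6 genes on each wild-type array after 6 h, by medium and substrate: points are arrays, bars are group means with SD, and the dotted line, in the FRE4 and YAP5 panels, is the median background limit of 6.01. FIT2 and ARN2 were lower on agar than in liquid in SD, SLAD and SG, and FRE4 and YAP5 were higher on agar in SD and SLAD.

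Among the ferrous iron genes, FRE2 fell 2-fold on SD agar and FRE4 rose. FET3, the copper oxidase of high-affinity uptake, fell by 0.69 and FTR1, its permease partner, by 0.47, whereas FET4 differed by -0.15 and did not pass. Of the surface reductase genes, FRE2 averaged 8.15 ± 0.12 on agar and 9.71 ± 0.30 in SD liquid (SD, 3 arrays each), a change of -1.56 ± 0.21 (SE). FRE1 fell by 0.75 and FRE3 by 0.996, just under the 2-fold limit. FRE4, which reduces siderophore-bound iron, had 10.80, 10.98 and 10.71 on agar, against 9.18, 9.64 and 9.07 in liquid. All agar arrays were above all liquid arrays, by 1.53 ± 0.30 (SE, adjusted p = 3.18e-05). FRE4 was higher on agar at 0 h too, at 11.18 ± 0.46 against 8.41 ± 0.59 in liquid (SD, 6 and 3 arrays).

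Vacuolar and regulatory genes split. FTH1 and FET5, the permease and oxidase that carry iron out of the vacuole, fell by 0.66 and 0.32, SMF3, another vacuolar exporter, by 0.55, and CCC1, the vacuolar importer, by 0.71. HMX1, a heme oxygenase that frees iron from heme, fell by 0.74. TIS11 averaged 9.11 ± 0.07 on agar and 9.95 ± 0.54 in liquid, a difference of -0.84 that did not pass. YAP5 had 7.77, 7.33 and 7.91 on agar, against 6.58, 6.78 and 6.31 in liquid, a rise of 1.11 ± 0.21 (SE). It was higher on agar at 0 h too, at 8.17 ± 0.36 against 6.86 ± 0.07 in liquid (SD, 6 and 3 arrays). AFT2 rose by 0.65, while AFT1 did not pass. None of the copper delivery genes CCC2 and ATX1, nor of the mitochondrial genes ISU1, ISU2, MRS3 and MRS4, passed the test.

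On SD gelatin against the same SD liquid arrays, 5 of the 33 genes fell at least 2-fold (FIT2, ARN1, ARN2, FRE2 and TIS11), against 2.48% of all genes, and FRE4 and YAP5 rose, against 1.41%. FIT2 had 9.01, 10.36 and 10.15 on gelatin, against 11.04, 11.94 and 12.01 in liquid, a change of -1.82 ± 0.47 (SE). TIS11 averaged 8.89 ± 0.06 on gelatin and 9.95 ± 0.54 in liquid, a change of -1.06 that lost its call without liquid replicate B (adjusted p = 0.15). Without gelatin replicate A, 4 genes were called in place of 7, and with only the gelatin and liquid arrays in the fit ARN2 alone was (adjusted p = 0.025), with FIT2 at an adjusted p of 0.14. Between agar and gelatin, 0 of the 33 genes differed 2-fold by limma, against 0.385% of all genes lower and 0.496% higher, and 5 had an unadjusted p below 0.05. At any size 2 fell on agar, SIT1 by 0.96 and FRE1 by 0.94, against 1.82% of all genes, and AFT2 rose by 0.49, against 10.6%. Without gelatin replicate A 3 of the 33 were called between agar and gelatin, and without agar replicate A 1 was.

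In SLAD, FIT1, FIT2, ARN1, ARN2 and SIT1 fell at least 2-fold on agar. Of the 33 genes, 10 fell at least 2-fold on SLAD agar against SLAD liquid, against 12.8% of all genes, and 2 rose, against 11.2%. At any size 21 fell, against 33.6% of all genes, and 6 rose, against 39.3%, with a median of -0.63 against 0.07 over all genes. FIT2 had 8.73, 8.60 and 9.16 on SLAD agar, against 12.50, 13.02 and 13.12 in SLAD liquid, a 16.6-fold difference. ARN2 had 9.37, 9.36 and 9.58 on agar, against 12.84, 13.32 and 13.33 in liquid, and ARN1 10.74, 10.81 and 10.83 on agar, against 14.01, 14.18 and 14.13 in liquid. These are 13.2-fold and 9.96-fold differences with no overlap between arrays. TIS11 was 6.04-fold lower on agar, FIT1 2.99-fold and FET4 2.66-fold, and SIT1 fell by 1.999 on the log2 scale. FET3, FRE2 and FRE6, a vacuolar reductase gene, fell by 1.09, 1.07 and 1.17, and FRE4 and YAP5 rose by 2.26 and 1.95.

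Tested as a difference between the SLAD and SD agar effects, 6 of the 33 genes had a more negative effect in SLAD, against 10% of all genes, and HMX1 was more positive, against 7.49%. The differences were -1.75 ± 0.53 for TIS11, -1.57 ± 0.20 for AFT2, -1.48 ± 0.38 for ARN1, -1.44 ± 0.43 for SIT1, -1.41 ± 0.47 for ARN2 and -1.26 ± 0.34 for FET4 (SE), and 1.495 ± 0.24 for HMX1. AFT2 changed sign between the media, with an agar effect of -0.92 in SLAD and 0.65 in SD. AFT2 had 10.44, 10.34 and 10.32 in SLAD liquid, and no array of any other group passed 9.71. TIS11 had 11.60, 11.88 and 11.81 in SLAD liquid, against 9.89, 10.52 and 9.44 in SD liquid, again without overlap.

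In SG, FIT2 and ARN2 fell on agar as well, while FTR1, FRE1 and HMX1 rose. Of the 33 genes, 4 fell at least 2-fold on SG agar against SG liquid (FIT2, FIT3, ARN2 and TIS11), against 7.78% of all genes, and 3 rose (FTR1, FRE1 and HMX1), against 7.95%. The counts in each direction were near those shares. FIT2 had 9.15, 9.24 and 9.34 on SG agar, against 11.93, 12.07 and 12.85 in SG liquid, a change of -3.04 ± 0.47 (SE). FIT3 averaged 10.70 ± 0.07 on agar and 12.15 ± 0.02 in liquid. For both mannoprotein genes every agar array lay below every liquid array. FRE1, the main surface reductase gene, had 12.41, 12.49 and 12.32 on SG agar, against 11.15, 11.12 and 10.92 in SG liquid. HMX1 averaged 12.36 ± 0.11 on agar and 11.10 ± 0.42 in liquid, and FTR1 13.30 ± 0.05 on agar and 12.07 ± 0.30 in liquid. In these genes the agar arrays all lay above the liquid arrays. The TIS11 call was lost without agar replicate A (adjusted p = 0.072).

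Set against the agar effect in SD, that in SG was more positive at 2-fold for FRE1 by 2.09 ± 0.26, HMX1 by 1.996 ± 0.24, FTR1 by 1.70 ± 0.18, ARN1 by 1.44 ± 0.38 and FRE2 by 1.14 ± 0.29 (SE), against 5.52% of all genes in that direction. FRE4 was more negative by -2.01 ± 0.43, against 6.99%. FIT2 and ARN2 did not pass this test, and their agar effects were -3.04 and -1.43 in SG beside -2.69 and -2.31 in SD. The SG and SD effects share no arrays, but the SLAD and SG differences both use the SD arrays.

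In liquid, the share of iron genes that differed between SLAD and SD was near that of all genes. In SLAD liquid against SD liquid, 4 of the 33 rose at least 2-fold (AFT2, FIT2, ARN1 and TIS11), against 9.47% of all genes, and 3 fell (FRE4, FRE7 and HMX1), against 7.23%. AFT2 rose by 1.67 ± 0.14 and TIS11 by 1.81 ± 0.37 (SE), and FIT2 by 1.22, a call lost without SD liquid replicate A or SLAD liquid replicate B or C (adjusted p up to 0.13). FRE4 had 7.24, 7.43 and 7.21 in SLAD liquid, against 9.18, 9.64 and 9.07 in SD liquid. FRE7, a reductase gene under copper control, averaged 6.99 ± 0.20 in SLAD and 8.32 ± 0.13 in SD liquid, and HMX1 10.37 ± 0.13 in SLAD and 11.67 ± 0.10 in SD. The SLAD and SD arrays did not overlap in any of these genes. On agar FRE4 alone was called between SLAD and SD, lower by -1.27 in SLAD, against 0.0734% of all genes lower. That call was lost without SD agar replicate B or SLAD agar replicate B (adjusted p up to 0.21).

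In SG liquid against SD liquid, 13 of the 33 genes fell at least 2-fold, against 12.3% of all genes, and 0 rose by 2-fold with limma, against 17.1%. At any size 21 fell, against 34.9% of all genes, and 5 rose, against 43.2%, the same number as had an unadjusted p below 0.05. FET4 had 6.04, 5.91 and 6.34 in SG liquid, against 10.47, 10.76 and 10.44 in SD liquid. On agar it had 5.41, 5.89 and 5.36 in SG, against 10.49, 10.33 and 10.40 in SD. The SG liquid arrays lay just above their background limits and only 1 of the 3 SG agar arrays did, while every SD array lay far above. FET4 differed by -4.46 ± 0.24 in liquid (SE), and on agar it was at least 23.4-fold lower in SG, with the SG arrays below their background limits set at those limits. PGAL1-FLO11 cells had FET4 at 5.44, 5.87 and 6.11 on SG agar against 10.25, 10.15 and 9.86 on SD agar.

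The surface reductase genes FRE1 to FRE4 all fell in SG liquid, FRE1 by 1.87, FRE2 by 1.33, FRE3 by 1.32 and FRE4 by 2.06. So did FTR1 by 1.84, ENB1 by 2.05, SMF3 by 1.48, FRE6 by 1.45, CCC2, the copper pump that loads Fet3, by 1.43, and ISU2, a scaffold for iron-sulfur clusters, by 1.36. ARN1 and ARN2 fell by 1.37 and 1.57. FIT1 went against them and rose by 0.91, as did FIT3 by 0.48, YAP5 by 0.83, CTH1, a relative of TIS11, by 0.50 and ATX1, a copper chaperone gene, by 0.50. For ATX1 the SG and SD liquid arrays overlapped, with an SD of 0.69 in SG liquid. On agar, 3 of the 33 fell 2-fold in SG against SD, against 3.78% of all genes, and 2 rose, against 8.53%. FRE4 had 6.75, 6.68 and 6.84 on SG agar, against 10.80, 10.98 and 10.71 on SD agar, a 16.8-fold difference. ENB1 fell by 1.40, while HMX1 rose by 1.43 and FIT1 by 1.03.

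**Figure D2:**
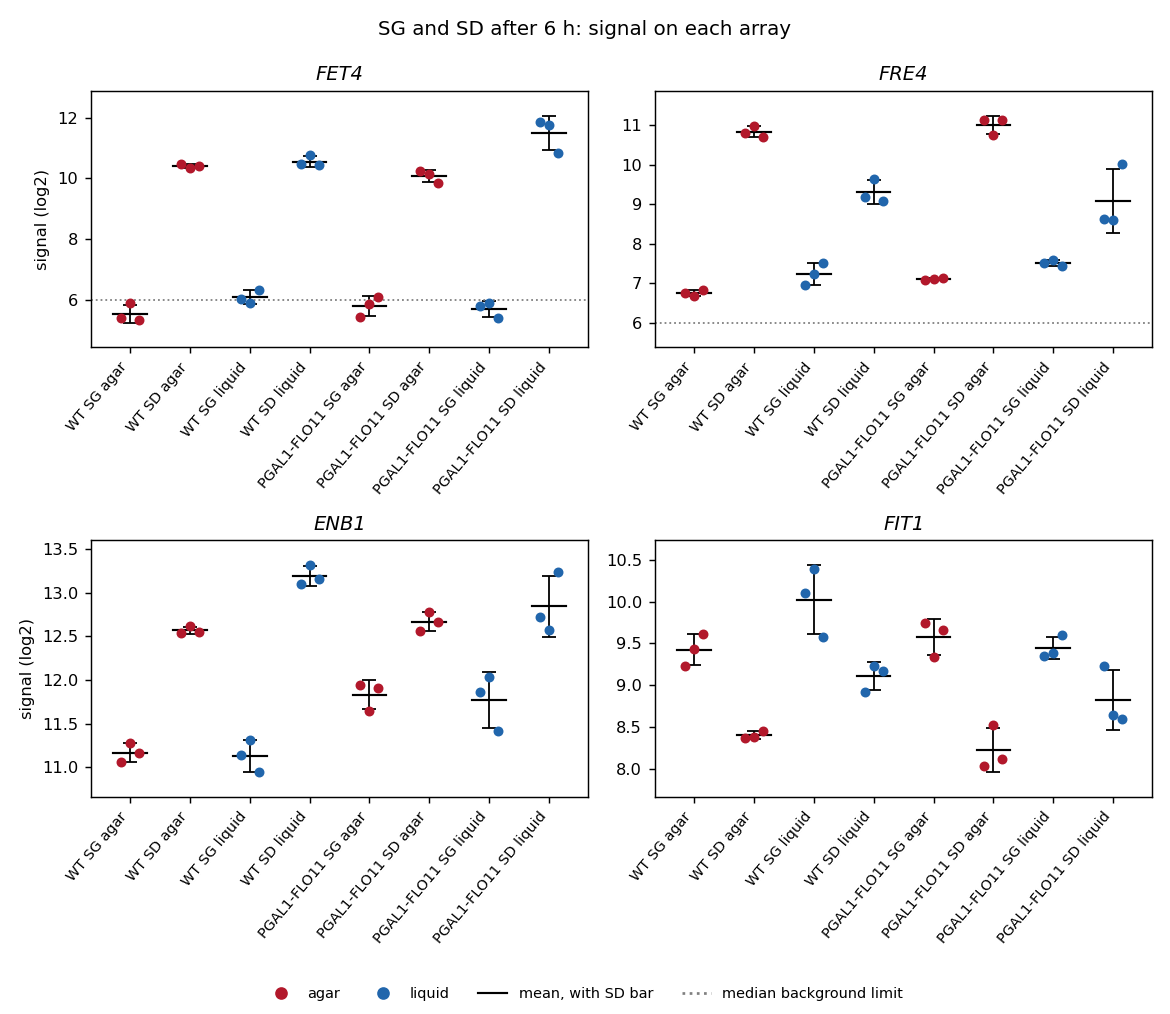
Signal (log2) of FET4, FRE4, ENB1 and FIT1 on each array after 6 h in SG and SD, for wild-type and PGAL1-FLO11 cells on agar and in liquid: points are arrays, bars are group means with SD, and the dotted line is the median background limit of 6.01. FET4 lay near that line in all SG groups and near or above 10 in all SD groups, and FIT1 alone of the 4 was higher in SG.

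Of the 29 groups, wild-type SLAD liquid held the highest mean of 10 of the 33 genes and the lowest of 4, PGAL1-FLO11 SG liquid that of 5 and wild-type SD liquid that of 4. Wild-type SG liquid held the lowest mean of 8 genes and SG agar that of 6. The same counts were not made over all genes, so they cannot be read as a trait of iron genes. In SLAD liquid 9.47% of all genes were 2-fold higher and 7.23% lower than in SD liquid. In SG liquid 17.1% were higher and 12.3% lower. PGAL1-FLO11 cells in SG liquid had FIT2 at 14.22, 13.61 and 12.62 and FIT3 at 14.28, 13.75 and 12.88. Replicate A there was also the only array on which FRE5 passed the background limit, at 6.49.

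In SD liquid most of the iron genes were higher at 6 h than at 0 h. The sample names of the 0 h liquid arrays carry a letter b, unexplained in the labels, that the 6 h names and the 0 h agar names lack, so what it marks cannot be told apart from time in liquid. At 6 h against 0 h, 7 of the 33 rose at least 2-fold, against 1.5% of all genes, and 0 fell by 2-fold with limma, against 4.86%. At any size 23 rose, against 20.3% of all genes, and 1, AFT2, fell, by 0.35, against 35.5%, and 1 had a lower value at an unadjusted p below 0.05. The median of the 33 was 0.65 while all genes had a median of -0.12. Quantile normalization moved the median of all genes to -0.003 and raised the count of iron genes called to 11, and centring on the array median moved it to 0.03 and the count to 13. FIT2 had 11.04, 11.94 and 12.01 at 6 h, against 9.06, 8.91 and 8.13 at 0 h, and SIT1 13.23, 13.26 and 12.96 at 6 h, against 11.63, 11.17 and 9.66 at 0 h. ARN2, ARN1, TIS11, FRE1 and FRE2 rose by 2.41, 1.67, 1.62, 1.26 and 1.19. Replicate C at 0 h was the lowest of its group for each of these 7 genes.

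On SD agar TIS11 and HMX1 fell 2-fold at 6 h against 0 h, against 1.08% of all genes. By limma 0 of the 33 rose at any size, against 10.2% of all genes, and 0 did at an unadjusted p below 0.05. At any size 5 fell (TIS11, HMX1, YAP5, CCC1 and CTH1), against 11.9%, and 10 were lower at an unadjusted p below 0.05. TIS11 averaged 9.11 ± 0.07 at 6 h (SD, n = 3) and 10.59 ± 0.52 at 0 h (SD, n = 6), and HMX1 10.93 ± 0.37 at 6 h and 12.09 ± 0.32 at 0 h. Without agar replicate A at 6 h, 1 of the 33 was called. FIT2 averaged 8.98 ± 0.17 at 6 h and 9.13 ± 0.74 at 0 h. The 0 h groups themselves had different levels, with FRE4 at 11.18 ± 0.46 on agar and 8.41 ± 0.59 in liquid, and SIT1 at 12.62 ± 0.38 on agar and 10.82 ± 1.03 in liquid. YAP5 at 0 h averaged 8.17 ± 0.36 on agar and 6.86 ± 0.07 in liquid. The letter b in the 0 h liquid names also coincides with these differences.

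**Figure D3:**
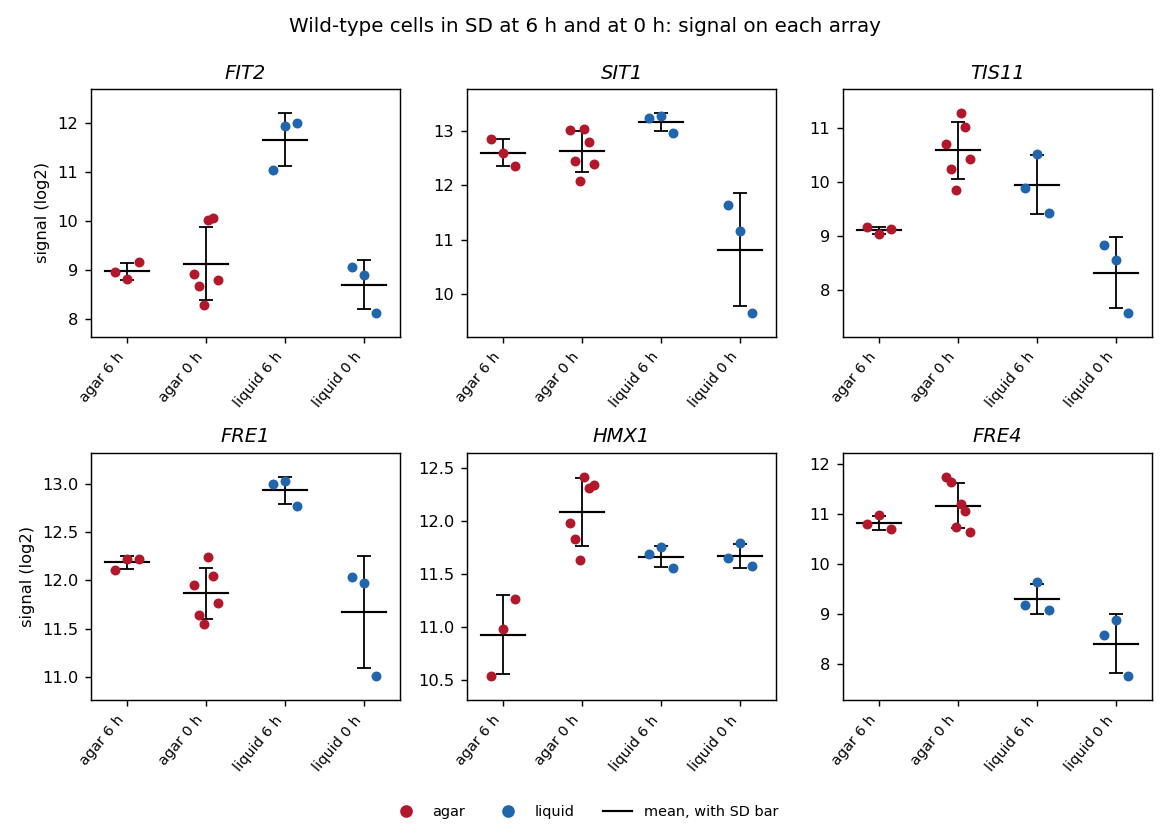
Signal (log2) of 6 genes in wild-type cells in SD at 6 h and at 0 h, on agar and in liquid: points are arrays and bars are group means with SD (6 arrays for agar at 0 h, 3 for the other groups). FIT2, SIT1, TIS11 and FRE1 were higher at 6 h than at 0 h in liquid, while on agar TIS11 and HMX1 were lower at 6 h.

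FIT2, ARN2, ARN1 and TIS11 were lower on agar in most strains. In 13 pairs of agar and liquid groups that share no arrays, in which 1.3% to 12.8% of all genes were called 2-fold lower, the FIT2 and ARN2 values were lower on agar in 13 and called 2-fold lower in 10, and ARN1 and TIS11 were called 2-fold lower in 9. None of these genes was called higher in any pair. Single arrays ended the call of FIT2 in Kss1K42R (4 arrays, adjusted p up to 0.48), of ARN2 in PGAL1-FLO11 in SD (1 array, up to 0.055) and of TIS11 in PGAL1-FLO11 in SG (4 arrays, up to 0.085). The median agar effect over the 13 pairs was -1.997 for FIT2, -1.43 for ARN2, -1.36 for ARN1 and -1.19 for TIS11. CCC1 and FTH1 had lower values on agar in 13 of 13 pairs and fell at any size in 9, against 10% to 33.6% of all genes per pair, but never by 2-fold. YAP5 rose at any size in 8 pairs, against 5.85% to 39.3%, and by 2-fold in 4, and fell in 0.

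FRE6, FIT3 and SIT1 also had lower values on agar in 13 of 13 pairs, and fell at any size in 8, 7 and 5. FET3 had lower values in 12 pairs and fell at any size in 9, and ENB1 in 11 and 8. None of these genes was called higher in any pair, and 10% to 33.6% of all genes fell per pair. The genes below were less uniform over the 13 pairs. FTR1 fell in 7 pairs and rose in 1, with medians of -0.56 for FET3 and -0.35 for FTR1. FRE1 fell in 7 pairs and rose in 1, FRE2 fell in 7 and rose in 1, and FRE3 fell in 5 and rose in 2, whereas FRE4 rose in 4 and fell in 0. FET4 fell in 6 pairs and rose in 3, HMX1 fell in 6 and rose in 3, and CTH1 fell in 3 and rose in 3. AFT1 and AFT2 each rose in 3 pairs and fell in 2. Of the mitochondrial genes, MRS3 and MRS4, which encode iron carriers of the inner membrane, passed in 2 pairs each, and ISU1, another cluster scaffold gene, rose in 3 and fell in 1.

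**Figure D4:**
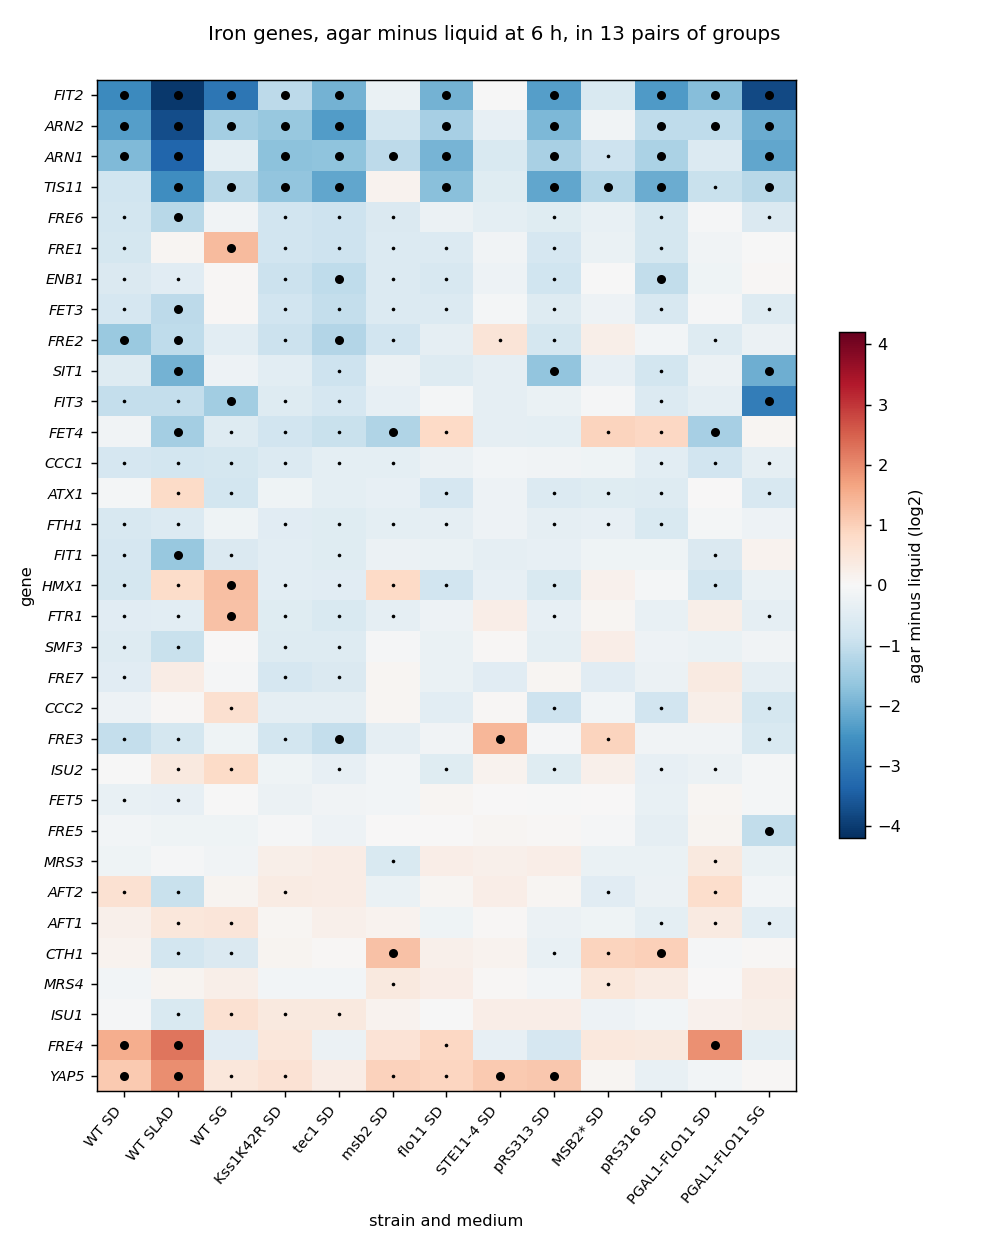
Agar minus liquid (log2) at 6 h for the 33 genes (rows, ordered by their median) in 13 pairs of groups (columns): large dots mark changes past the test and 2-fold, small dots changes past the test alone. FIT2, ARN2, ARN1 and TIS11 fell in most columns, and few cells passed in the STE11-4 column.

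In Kss1K42R cells, 4 of the 33 fell at least 2-fold on agar (FIT2, ARN1, ARN2 and TIS11), against 3.34% of all genes. In tec1 knockout cells 7 fell (FIT2, ARN1, ARN2, ENB1, FRE2, FRE3 and TIS11), against 4.07%. ARN2 had 9.57, 9.81 and 9.57 on agar, against 10.56, 12.51 and 12.90 in liquid in tec1 cells, so liquid replicate A stood well below the other liquid arrays. The same array was low for FIT2 at 9.62, SIT1 at 11.74 and TIS11 at 8.70. Without it 11 of the 33 were called, and without liquid replicate C 4 were. In flo11 knockout cells 4 genes fell 2-fold, against 2.64% of all genes, ARN1 by 1.95, ARN2 by 1.41 and TIS11 by 1.75, with FIT2 at -1.997.

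In pRS313 vector cells 5 of the 33 genes fell 2-fold on agar (FIT2, ARN1, ARN2, SIT1 and TIS11), against 1.63% of all genes, and YAP5 rose, against 0.771%. The names of the liquid arrays of pRS313 and STE11-4 cells carry the same letter b and those of their agar arrays do not, so what it marks cannot be told apart from agar against liquid in these strains. In pRS316 vector cells 5 fell (FIT2, ARN1, ARN2, ENB1 and TIS11), against 2.26%, and CTH1 rose, against 2.62%. PGAL1-FLO11 cells had 7 genes 2-fold lower on agar in SG, against 1.3% of all genes, with FIT2 at -3.79 and FIT3 at -2.91, and with FRE5 among them although it passed the background limit on 1 of those arrays alone. In SD they had 3 lower (FIT2, ARN2 and FET4), against 4.09%, and FRE4 higher by 1.92, against 1.78%.

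FIT2 and ARN2 were not called lower on agar in the msb2 knockout, STE11-4 and MSB2* strains. In msb2 knockout cells, FIT2 had 9.31, 10.69 and 10.19 on agar, against 10.53, 10.22 and 10.24 in liquid, and the groups overlapped. ARN1 and FET4 fell 2-fold, against 1.84% of all genes, while CTH1 rose by 1.22, against 2.77%. The agar effect in msb2 knockout cells differed from that in wild-type cells by 2.42 ± 0.66 for FIT2, 1.53 ± 0.47 for ARN2, 1.57 ± 0.24 for HMX1 and 1.07 ± 0.15 for CTH1 (SE), against 2.81% of all genes in that direction, and by -1.10 for FET4, against 2.62%. CTH1 also rose on agar in pRS316 vector cells, by 1.01 beside 1.22 in msb2 knockout cells. The agar effects of msb2 knockout and pRS316 cells were not tested against each other. The ARN2 difference was lost without msb2 agar replicate B (adjusted p = 0.066) and the FET4 difference without agar or liquid replicate C (adjusted p up to 0.13), and without msb2 agar replicate C 3 genes were called in place of 5. The comparisons of the knockouts and Kss1K42R with wild type share the wild-type arrays.

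In cells with STE11-4, FIT2 had 9.83, 10.17 and 9.72 on agar, against 10.49, 9.16 and 10.14 in liquid, and the groups overlapped. By limma 0 of the 33 genes fell at any size, against 16.4% of all genes, and 5 had a lower value at an unadjusted p below 0.05. FRE3 and YAP5 rose 2-fold, against 0.661%, and 1 was called without agar or liquid replicate C. In pRS313 cells FIT2 had 8.92, 8.98 and 9.52 on agar, against 11.71, 11.36 and 11.30 in liquid. The agar effects of STE11-4 and pRS313 cells differed by 2.30 ± 0.66 for FIT2, 1.69 ± 0.53 for TIS11, 1.55 ± 0.47 for ARN2, 1.46 ± 0.30 for FRE3 and 1.28 ± 0.29 for FRE2 (SE), against 0.367% of all genes in that direction. Leaving out single arrays ended the calls of FIT2, TIS11 and ARN2 in 6, 10 and 9 of 12 cases, with adjusted p up to 0.099, 0.13 and 0.13, and left between 2 and 7 of the 33 genes called, 2 or 3 without any 1 array other than pRS313 agar replicate C and STE11-4 liquid replicate A.

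In MSB2* cells TIS11 was the only gene of the 33 that fell 2-fold on agar, against 1.54% of all genes, by 1.19, a call lost without agar replicate B or liquid replicate C (adjusted p up to 0.073), and 2 genes were called without agar replicate A or liquid replicate B. FIT2 averaged 9.29 ± 0.10 on agar and 9.92 ± 0.35 in liquid and did not pass. The agar effects of MSB2* and pRS316 cells differed by 1.03 for ENB1 and 1.06 for FRE3, against 0.349% of all genes, and single arrays ended the FRE3 call in 10 of 12 cases (adjusted p up to 0.17) and the ENB1 call in 1, leaving 0 genes called without pRS316 agar replicate A or B and 1 without any other array except pRS316 agar replicate C and MSB2* liquid replicate B.

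For the remaining strains few differences in agar effect were called. The agar effects of tec1 and wild-type cells differed by -1.79 ± 0.43 for FRE4 (SE), against 1.63% of all genes in that direction, and without tec1 liquid replicate A 2 genes were called. Between flo11 and wild-type cells they differed by 1.19 ± 0.29 for FRE2, against 0.771%, and 2 or 3 genes were called without flo11 agar replicate A, flo11 liquid replicate B or wild-type liquid replicate A. Between Kss1K42R and wild-type cells 0 of the 33 differed by limma, against 0.404% of all genes higher and 0.899% lower, while 5 had an unadjusted p below 0.05 and 1 was called without Kss1K42R liquid replicate C.

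On SD agar, FRE1 and FRE3 were higher in cells with STE11-4 or MSB2* than in their vector cells. With STE11-4 against pRS313, FRE1, FRE2 and FRE3 rose at least 2-fold, against 0.624% of all genes. By limma 0 of the 33 fell, against 0.165% of all genes at 2-fold, and 1 had a lower value at an unadjusted p below 0.05. FRE1 had 13.49, 13.62 and 13.54 in STE11-4 cells, against 12.23, 12.04 and 12.28 in pRS313 cells. FRE2 had 9.58, 9.58 and 9.66 in STE11-4 cells, against 7.93, 7.90 and 8.03 in pRS313 cells. FRE3, which reduces siderophore-bound iron, had 11.002, 11.29 and 11.04 in STE11-4 cells, against 9.44, 9.27 and 9.78 in pRS313 cells. None of these sets overlapped, and the differences were 1.37 ± 0.19, 1.65 ± 0.21 and 1.62 ± 0.21 (SE), with adjusted p of 9.18e-08, 1.06e-08 and 5.19e-08. FTR1 rose by 0.45 and FRE4, at 9.30 ± 0.12 in STE11-4 cells and 9.31 ± 0.15 in pRS313 cells, did not pass.

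With MSB2* against pRS316 on agar, FRE1 and FRE3 rose by 1.28 and 1.02, against 1.34% of all genes higher at 2-fold. FRE7 had 7.65, 7.86 and 7.76 in MSB2* cells, against 9.44, 9.37 and 9.70 in pRS316 cells, a 3.35-fold lower signal, against 0.33% of all genes. The pRS316 vector cells held the highest FRE7 means of all 29 groups, 9.75 in liquid and 9.50 on agar. Wild-type cells on SD agar averaged 7.85. FRE2 averaged 8.81 ± 0.04 in MSB2* cells and 8.36 ± 0.20 in pRS316 cells and did not pass. In liquid, FRE1 averaged 13.71 ± 0.22 in STE11-4 cells and 12.89 ± 0.05 in pRS313 cells, and 13.55 ± 0.14 in MSB2* cells and 12.72 ± 0.01 in pRS316 cells. FRE3 averaged 9.71 ± 0.58 in STE11-4 cells in liquid and 9.55 ± 0.02 in pRS313 cells, with STE11-4 replicate B at 9.04 beside 10.07 and 10.02. The liquid values of these strains are given without a test.

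Mating-type genes moved on the same agar arrays. In STE11-4 cells 3 of 7 a-cell markers and 2 of 4 alpha-cell markers rose, against 2.7% of all genes, none fell, and the log2 of their summed signal ran from 11.14 to 11.22 and from 11.21 to 11.24, against 10.31 to 10.52 and 10.64 to 10.79 in pRS313 cells. In MSB2* cells 1 of 7 and 1 of 4 rose, against 6.68% of all genes, with sums of 10.71 to 10.96 and 10.90 to 10.999, against 10.41 to 10.49 and 10.48 to 10.72 in pRS316 cells. Such sums were not particular to these strains. The a-cell sum ran from 10.67 to 10.93 in tec1 knockout cells on agar, against 10.29 to 10.42 in wild-type cells on SD agar. In wild-type SLAD liquid the a-cell sum ran from 10.82 to 11.15 and the alpha-cell sum from 11.38 to 11.73. MF(ALPHA)1 passed the background limit on only 29 of 90 arrays, BAR1 and AGA2 on 84 each and STE6 and ASG7 on 88 each. The part of the mating-type genes in the reductase result was not tested.

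**Figure D5:**
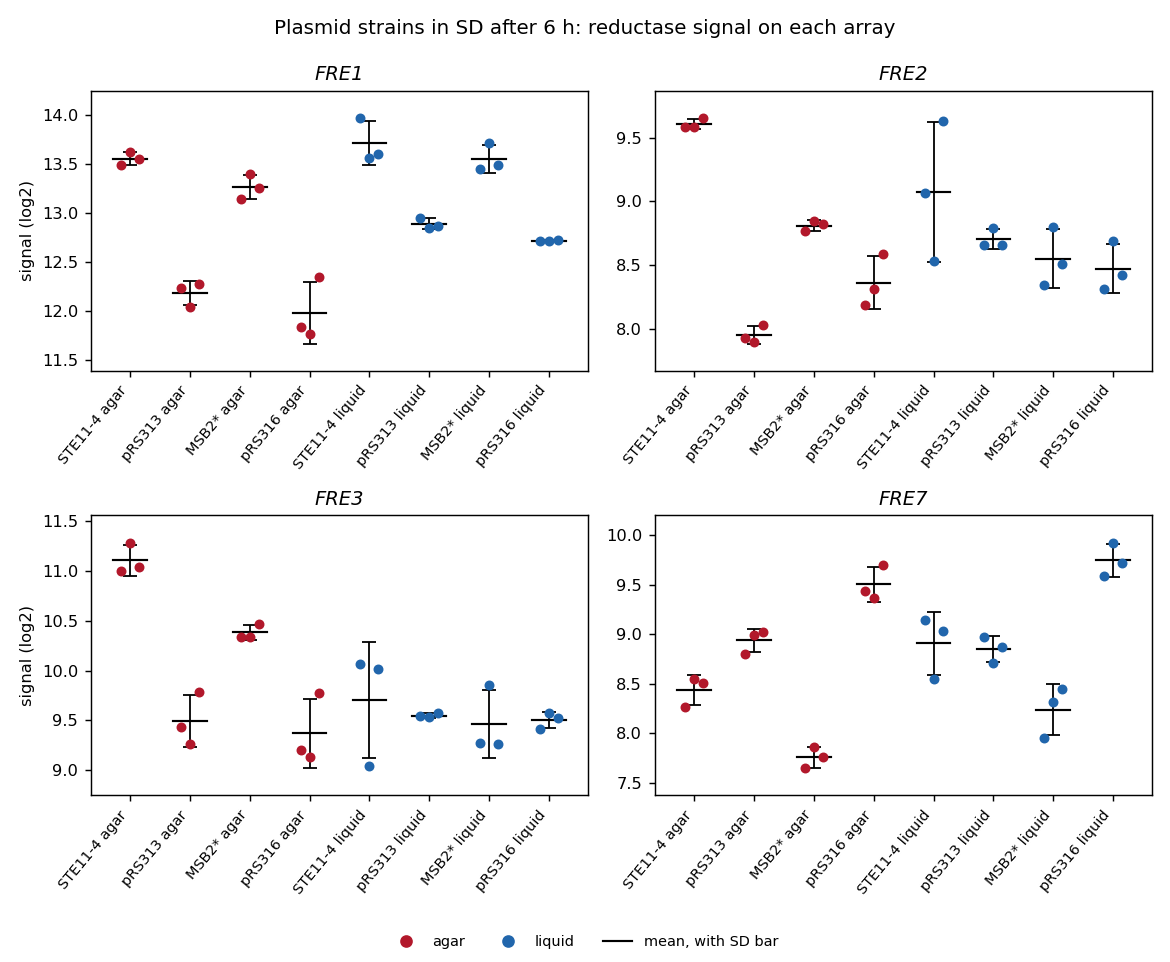
Signal (log2) of FRE1, FRE2, FRE3 and FRE7 on each array of the plasmid strains in SD after 6 h, on agar and in liquid: points are arrays and bars are group means with SD. FRE1 and FRE3 on agar were higher in STE11-4 than in pRS313 and in MSB2* than in pRS316, and FRE7 on agar was lower in MSB2* than in pRS316. The pRS316 cells held the highest FRE7 means of all 29 groups.

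The tec1, Kss1K42R and flo11 strains differed from wild type on agar in few iron genes. In tec1 knockout cells FRE4 had 9.59, 9.57 and 9.39, against 10.80, 10.98 and 10.71 in wild-type cells, the 1 gene of the 33 lower by 2-fold, against 0.624% of all genes. At any size 6 were lower, against 5.27%, FRE4 and YAP5, FET3, FTR1, FRE7 and CTH1, the last 5 by -0.74, -0.63, -0.48, -0.78 and -0.36. In Kss1K42R cells 0 passed at 2-fold by limma, against 0.0551% of all genes higher and 0.496% lower. At any size 2 fell, FET3 by 0.46 and CTH1 by 0.39, against 4.59%, while 13 had a lower value at an unadjusted p below 0.05. In flo11 knockout cells FRE4 was the only one called, at -1.18 ± 0.30 (SE), against 0.257% of all genes lower, and the call was lost whichever single array was left out (adjusted p up to 0.16). Set against pRS316 in place of wild type, FRE4 was higher in flo11 knockout cells by 1.34.

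In msb2 knockout cells on agar FET4 had 9.55, 8.96 and 8.21, against 10.49, 10.33 and 10.40 in wild-type cells, a change of -1.50, against 1.16% of all genes lower. HMX1 had 12.29, 12.31 and 12.22 in msb2 knockout cells, against 10.53, 10.98 and 11.27 in wild-type cells, a rise of 1.35 ± 0.17 (SE), against 1.84% higher. CTH1 rose by 0.96. With pRS316 cells on agar in place of wild type, none of the 3 passed, with differences of -0.057 for FET4, 0.34 for HMX1 and 0.025 for CTH1 (adjusted p from 0.19 to 0.93). Without msb2 agar replicate A, 5 genes were called in place of 2.

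The vector strains differed from wild type in some iron genes in liquid. In pRS316 cells FET4 had 7.78, 8.30 and 8.17, against 10.47, 10.76 and 10.44 in wild-type cells, and FRE4 had 7.59, 8.05 and 8.08 in pRS316 cells, against 9.18, 9.64 and 9.07 in wild-type cells. With ARN2 and FRE2, 4 genes were 2-fold lower in pRS316 cells than in wild-type cells, against 1.21% of all genes, and 2 were higher, FRE7 by 1.43 and TIS11 by 1.02, against 2.79%. The TIS11 call was lost without wild-type replicate A or C or pRS316 replicate A (adjusted p up to 0.16). In pRS313 cells, whose liquid arrays have the letter b that the wild-type 6 h arrays lack, FRE2 alone was called, lower by -1.01, against 1.38%. That count was 0 without pRS313 replicate A or C and 2 without wild-type replicate A. The median of all genes was itself shifted by 0.13 for pRS313 and 0.11 for pRS316.

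Other iron genes listed around the 33 gave the following counts. Of 9 further targets of Aft1 or Aft2, 3 fell at least 2-fold on SD agar, against 2.81% of all genes, PRY1 by 1.70, BIO5, a vitamer transporter gene of biotin synthesis, by 1.16 and ATG41 by 1.12, and 7 fell at any size on SLAD agar, against 33.6%, with PRY1 at -3.61 and ECM4 at -2.79. In SD liquid at 6 h against 0 h, 6 of the 9 rose, against 20.3% of all genes, led by VHT1, the biotin transporter gene, at 1.14. Of 21 genes of iron-sulfur cluster assembly, 12 rose and 1 fell on SD agar, against 30.8% and 21.1% of all genes, and 16 rose and 1 fell on SLAD agar, against 39.3% and 33.6%, with medians of 0.26 and 0.51. In SLAD these included IBA57 at 1.75, ATM1, the mitochondrial exporter gene, at 1.38, and YFH1, the yeast frataxin gene, at 1.09.

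Of 23 genes of iron-using enzymes, 4 were higher and 14 lower on SD agar, against 30.8% and 21.1% of all genes, led by CYB2, a lactate dehydrogenase gene, at -1.51 and CTT1, a catalase gene, at -1.36. On SLAD agar 5 were higher and 14 lower, against 39.3% and 33.6%, with CTT1 at -3.67. In SG liquid against SD liquid 11 were higher and 8 lower, against 43.2% and 34.9%, with CTT1 at 4.32. Of 8 heme synthesis genes, 1 was higher and 2 lower on SD agar, with HEM3 at 2.22, and of 10 copper genes 3 were higher and 2 lower, with CTR2, a vacuolar copper transporter gene, at -0.77. These counts are near or below the 30.8% of all genes higher and 21.1% lower there. Of 5 genes of iron sensing or iron excess only GRX3, a glutaredoxin gene, is given here, so it does not show the direction of that list. GRX3 rose by 0.47 on SD agar and by 1.63 on SLAD agar, where 30.8% and 39.3% of all genes were higher.

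Over the 29 group means, several of the uptake genes had levels that ran together. The highest correlation was between ARN1 and ARN2, with r = 0.92, followed by ARN1 and FET3 with 0.89, and ARN1 with FTH1 and FIT2 with ARN1 both had 0.86. TIS11 was most like ARN1, with r = 0.80. ENB1, SMF3 and FRE6 also ran together, with r = 0.84 between ENB1 and SMF3 and 0.83 between ENB1 and FRE6, and FRE2 was most like FRE3, with 0.82. YAP5, FRE7, ATX1, CTH1 and HMX1 had no positive correlation over 0.5 with any of the others. Their lowest values were -0.62 for YAP5 with ARN2, -0.65 for HMX1 with MRS3, -0.60 between ATX1 and CTH1, and -0.38 for FRE7 with FET4. The lowest of all 528 pairs was -0.78, between FIT1 and FRE4, and the median was 0.16. FRE3, FIT2, FIT3 and FRE5 are neighbours on 1 chromosome arm in the RefSeq R64 gene table, and FIT3 and FRE5 had r = 0.82, with FRE5 above background on only 1 of 90 arrays. These values describe group means that share arrays between genes and media between groups, and no p is given.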

How the data were processed

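The values are log2 signals per probe set of Affymetrix yeast arrays, made by the authors with RMA, per the submitters' processing notes, its version and options not given in the sources used here. Per the labels' protocols, cells were frozen in acid phenol, and total RNA was extracted with RNeasy kits and labelled with biotin. Of 10928 probe sets, 5498 were annotated to 1 S. cerevisiae gene, and the brightest of each gene gave 5449 genes. Array medians ran from 6.76 to 7.23, and the number of arrays limits the precision.

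Groups were taken from the labels. One mean per group was fitted over all 90 arrays with limma 3.58.1 (lmFit, eBayes; R 4.3.3), with 61 residual degrees of freedom, and p-values, all 2-sided, were adjusted by Benjamini-Hochberg over the 5449 genes within each comparison. All 33 members and up to 3 genes of each further list are named, and GAL1 was added to check the media. The members, lists and comparisons were chosen with earlier results of these data known. The fit was tested on simulated data. Alternatives changed the normalization, the filter on dim genes, the probe set rule, the arrays fitted and the replicate block, and left out single arrays.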

Additional observations from a re-analysis of the deposited data

Results flagged for a closer look

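Differences between agar effects that passed the test are collected here, each as the agar effect of one condition minus that of another on the log2 scale. No array of the 6 wild-type SD agar arrays at 0 h stood apart for any of the 33 genes by the gap to its nearest neighbour.

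For SLAD minus SD in wild-type cells the differences were -1.75 for TIS11, -1.57 for AFT2, -1.48 for ARN1, -1.44 for SIT1, -1.41 for ARN2, -1.26 for FET4 and 1.495 for HMX1. For SG minus SD they were 2.09 for FRE1, 1.996 for HMX1, 1.70 for FTR1, 1.44 for ARN1, 1.14 for FRE2 and -2.01 for FRE4.

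For the msb2 knockout minus wild type in SD they were 2.42 for FIT2, 1.57 for HMX1, 1.53 for ARN2, 1.07 for CTH1 and -1.10 for FET4, for the tec1 knockout minus wild type -1.79 for FRE4, and for the flo11 knockout minus wild type 1.19 for FRE2. For STE11-4 minus pRS313 they were 2.30 for FIT2, 1.69 for TIS11, 1.55 for ARN2, 1.46 for FRE3 and 1.28 for FRE2, and for MSB2* minus pRS316 1.03 for ENB1 and 1.06 for FRE3.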

How the results depend on the processing

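Counts of iron genes called at 2-fold are given here where an alternative moved them by over 1.5 times. Leaving out the dimmest 25% of genes, which by construction drops AFT2, YAP5, FIT1, FET4, FRE2, FRE4, FRE5 and FRE7, left 3 for SD agar against liquid, 4 for gelatin against liquid, 7 for SLAD agar against liquid, 4 and 0 for SLAD against SD in liquid and on agar, 2 for SG against SD on agar, 1 for STE11-4 and 2 for PGAL1-FLO11 in SD on agar against liquid, 0 for tec1, 1 for msb2 and 0 for flo11 against wild type on agar, 0 for pRS313 and 2 for pRS316 against wild type in liquid, and 0 for tec1, 0 for flo11 and 1 for MSB2* as differences of agar effects. Among the members kept, 918 results were unchanged in whether they passed the adjusted p, 6 newly passed and 1 no longer did. These lower counts therefore mostly reflect the dropped members and say little about the calls of the kept ones. Centring on the array median gave 1 for agar against gelatin, 13 for 6 h against 0 h in liquid, 2 for pRS313 against wild type and, as differences of agar effects, 3 for flo11, 3 for STE11-4 and 1 for MSB2*. Quantile normalization gave 11 for 6 h against 0 h in liquid, 2 for MSB2* agar against liquid, 0 for flo11 and 3 for pRS313 against wild type, and 3 for the flo11 difference. It also turned FRE7 in SG against SD agar to -0.048, beside 0.48. Fitting only the arrays compared left 1 for gelatin against liquid, and the 0 h agar replicates A to C alone 1 for 6 h against 0 h. With pRS316 in place of wild type, 4 were called for msb2 and 5 for flo11, where FRE4 stood at 1.34. Same-lettered arrays had deviations with r from -0.48 to 0.44 over 29 comparisons of 2 groups, and r was over 0.1 for every letter in 1, flo11 agar against liquid, where a replicate block left 4 genes called, as without it. The block gave 1 for 6 h against 0 h on agar and 1 for the MSB2* difference and kept the other 35 counts within 1.5 times. Single arrays left out gave 4 to 7 for gelatin against liquid, 0 to 3 for agar against gelatin, 0 to 1 for SLAD against SD agar, 1 to 2 for 6 h against 0 h on agar, 4 to 11 for tec1, 1 to 2 for STE11-4 and 1 to 2 for MSB2* on agar against liquid, 2 to 5 for msb2, 0 for flo11 and 0 to 2 for pRS313 against wild type, and 0 to 1 for Kss1K42R, 1 to 2 for tec1, 3 to 7 for msb2, 1 to 3 for flo11, 2 to 7 for STE11-4 and 0 to 2 for MSB2* as differences of agar effects. Averaging probe sets could not move the members' own values, since each has 1 probe set. The cause of these shifts was not tested. FRE5 and, in SG, FET4 lay at the background, which limits what can be read from them.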
